A study of Caenorhabditis elegans with 12 samples.

Results

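The effect of the daf-42 mutation on gene expression before dauer was read from 6 of the 12 RNA-seq libraries of the study, all made from Caenorhabditis elegans harvested 52 h after egg laying. Membership followed the library titles: 3 libraries of daf-2(e1370) animals (strain CB1370) were compared with 3 libraries of daf-2(e1370);daf-42(ys54) animals (strain LJ2703). Eggs were laid at 15 °C and larvae were then kept at 25 °C, a temperature at which daf-2(e1370) larvae are driven toward dauer, and the series describes both strains as late L2d, the larval stage that leads into dauer. Both groups therefore carry the daf-2 mutation, and no animals with wild-type daf-2 entered the comparison. Polyadenylated RNA came from whole animals and was sequenced from a stranded library kit. Each genotype was represented by 1 strain, so a difference between the strains at another locus cannot be told apart from the effect of daf-42(ys54). The labels do not say whether the replicates were separate cultures, so the p-values measure the spread between these samples, which may be technical. The 60 h libraries, 3 per genotype, were used only to look again at genes called at 52 h. The double-mutant harvest at 60 h held living and dead L2d larvae.

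Dauer is a long-lived, non-feeding larval stage that C. elegans enters instead of the usual L3 larva when food is short, the population is dense or the temperature is high. The decision runs through pheromone sensing, a TGF-beta and an insulin-like signal, and the steroid dafachronic acid, which acts on the nuclear receptor DAF-12. The daf-2 gene encodes the insulin-like receptor, and lowered DAF-2 signalling releases the transcription factor DAF-16 and favours dauer. The daf-42 gene is known for a requirement in dauer development and is expressed in the seam cells, lateral epidermal cells that remodel the cuticle and narrow the body as dauer forms.

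The 52 h libraries held 32767445 to 43519410 estimated counts, and the median SD of log2 CPM (read counts scaled per library) was 0.176 between daf-2 replicates and 0.199 between double-mutant replicates. On the first principal component, 36.9% of the variance, the libraries separated by genotype. On the second, 27.5% of the variance, replicate 1 of each genotype stood apart from its own group. Summed CPM of 13 intestine markers was 4560, 4114 and 4087 in daf-2 and 5161, 4547 and 5902 in the double mutant, and 14 body muscle markers summed to between 19030 and 22419 in daf-2 and between 19312 and 35400 in the double mutant. Both sums were highest in double-mutant replicate 3. For 14 pharynx markers the sums were 2018, 1865 and 1789 in daf-2 and 2598, 1870 and 2410 in the double mutant. The seam cell markers, 15 genes, summed to between 513 and 582 in daf-2 and between 541 and 593 in the double mutant. Summed adult vitellogenins lay between 0.691 and 1.38 CPM. In whole animals, a change in the number of cells of a type and a change in RNA per cell cannot be told apart.

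The daf-42 transcript (WBGene00021496, chromosome IV, 7333638 to 7346851 on the minus strand, WBcel235) was abundant in both strains. Its level was 1040, 1888 and 2101 CPM in the 3 daf-2 libraries and 883, 707 and 784 CPM in the double mutant. All double-mutant libraries lay below all daf-2 libraries, and the daf-2 libraries were themselves spread over a wide range, with replicate 1 lowest. The log2 fold change of -1.08 (SE 0.26) did not pass the test (edgeR quasi-likelihood, adjusted p = 0.115). It passed without daf-2 replicate 1 (log2 fold change -1.33, edgeR adjusted p = 0.0169) and when a trend with transcript length was removed (log2 fold change -1.32, edgeR adjusted p = 0.0206). DESeq2 also called it (adjusted p = 0.00124). The labels do not describe the ys54 lesion, so the transcript level does not by itself check the genotype. The daf-2 transcript was measured at 98.2, 118.7 and 139 CPM in daf-2 against 182.99, 114 and 208 CPM in the double mutant. These ranges overlapped, and the log2 fold change of 0.50 (SE 0.23) did not pass the edgeR test (adjusted p = 0.435).

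Of 15521 genes tested, 208 were called at a Benjamini-Hochberg adjusted p under 0.05 (1.34% of those tested), and 1850 had an unadjusted p under 0.05 in edgeR. In the double mutant 162 were higher (1.04%) and 46 were lower (0.296%). Among the calls, 5 pairs of genes had equal counts, and both members of each pair are counted. The difference was at least 2-fold for 122 of the higher genes and 37 of the lower ones. The libraries of the 2 genotypes did not overlap for any called gene, while 18.2% of all tested genes showed no overlap. Among the higher genes, double-mutant replicate 1 was the lowest of its group for 92 and replicate 2 the highest for 90. The number of calls depended on single libraries. It was 87 without daf-2 replicate 2, 74 without daf-2 replicate 3, 86 without double-mutant replicate 2 and 99 without double-mutant replicate 3, but 191 and 193 without replicate 1 of daf-2 and of the double mutant. A core of 63 calls (40 higher, 23 lower) was kept in each of these 6 fits. When all 12 libraries shared 1 fit, 104 genes were called at 52 h (0.635%), of which 96 were among the 208. DESeq2 called 503 (3.24%), 351 of them higher (2.26%), and on simulated counts 17.2% of its calls were false against 3.62% for edgeR. The simulation drew independent libraries with edgeR's dispersion estimates, so these rates may not hold for the real libraries. With the replicate number as a block edgeR called 266 (1.71%), 198 of them higher (1.28%).

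**Figure D1:**
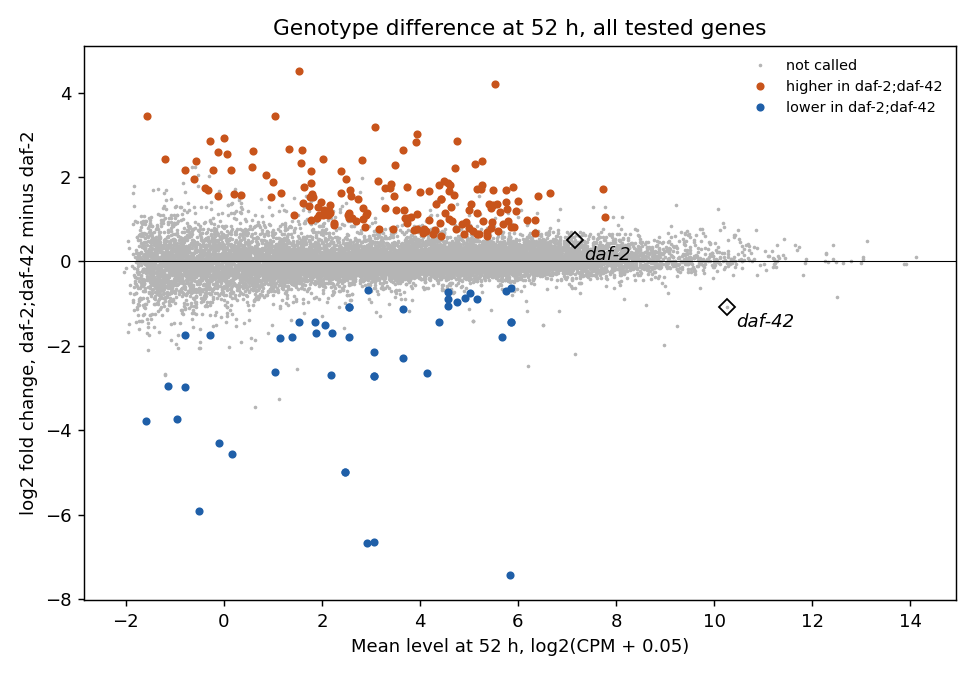
Each dot is 1 of the 15521 genes tested at 52 h, with its mean level over both genotypes on the x axis as log2(CPM + 0.05) and the log2 fold change between genotypes on the y axis. The 162 genes called higher (orange) and 46 called lower (blue) include the few genes with very large falls, and the diamonds mark daf-2 and daf-42, neither of which was called.

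The known dauer regulators gave no calls, when 1.34% of all tested genes were called. At that share few or no calls are expected in lists of this size, so their absence says little about these pathways. On simulated counts for this comparison edgeR recovered 12% of 1.5-fold and 56% of 2-fold changes. None of 15 tested genes of the insulin pathway was called, with a median log2 fold change of 0.07, nor any of 10 genes of the TGF-beta dauer pathway (median 0.13), 10 of the dafachronic acid pathway (median 0.10) or 8 of the ascaroside pheromone pathway (median 0.07). The median over all tested genes was -0.01. Without the trend with transcript length the 4 medians were -0.01, 0.04, 0.01 and 0.06. By edgeR, 1 gene each of the insulin and TGF-beta lists had an unadjusted p under 0.05 and none of the other 2 lists. DAF-16, the FOXO factor under insulin control, was encoded by a transcript at 204, 292 and 281 CPM in daf-2 against 260, 239 and 251 CPM in the double mutant. The log2 fold change of daf-16 was -0.05 (SE 0.17), and the double-mutant libraries lay within the range of the daf-2 libraries. For daf-7, the TGF-beta ligand made in sensory neurons, the log2 fold change was 0.01 (SE 0.12), with 87.1, 106 and 102 CPM against 97.3, 98.2 and 102 CPM.

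In the steroid branch, daf-12, the dafachronic acid receptor, stood at 223, 276 and 311 CPM in daf-2 against 305, 290 and 432 CPM in the double mutant, a log2 fold change of 0.34 (SE 0.20) with overlapping groups. The cytochrome P450 gene daf-9, which makes dafachronic acid, was near 1 to 2 CPM in both genotypes, from 1.3 to 1.91 in daf-2 and from 1.18 to 1.52 in the double mutant (-0.25 ± 0.23 SE as a log2 fold change). The oxygenase gene daf-36, which acts earlier in the same synthesis, had a log2 fold change of -0.15 (SE 0.20). For daf-22, needed for the last steps of pheromone synthesis, it was 0.08 (SE 0.19). The largest value among the regulators in either direction was -0.76 (SE 0.36) for srbc-64, a pheromone receptor, which was below 1 CPM in every library. Among the remaining genes of the TGF-beta list, the SMAD gene daf-3 had the highest value, 0.53 (SE 0.17), and its edgeR adjusted p was 0.251.

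**Figure D2:**
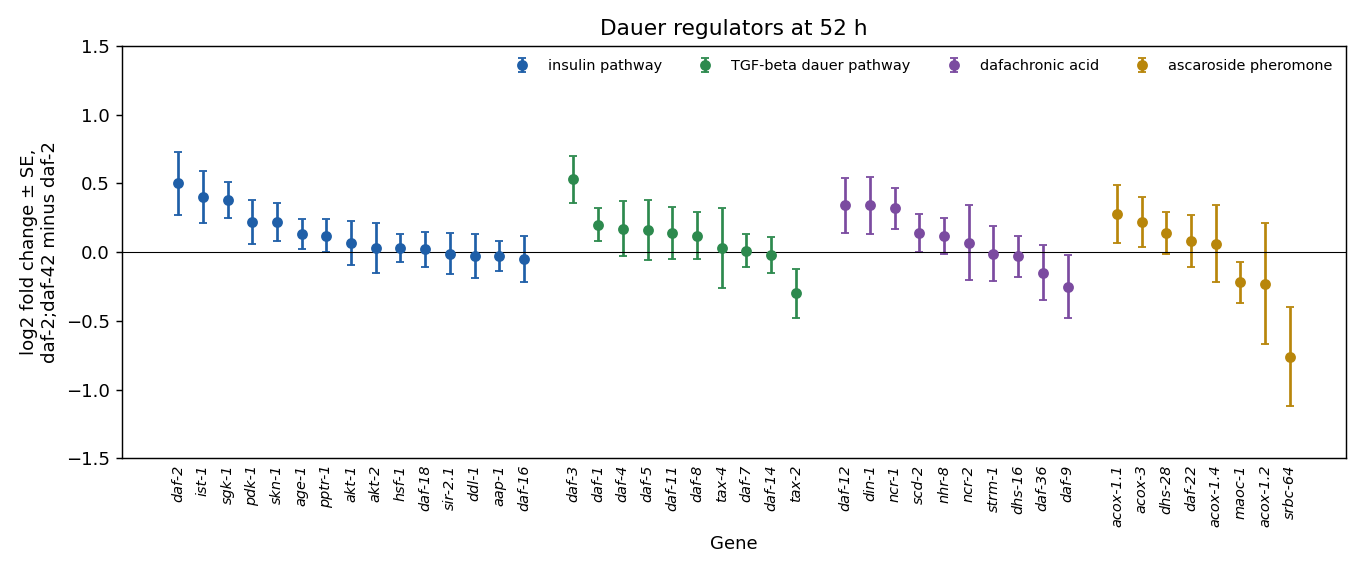
Points give the log2 fold change at 52 h (daf-2;daf-42 minus daf-2) of each tested gene of 4 dauer-regulatory lists, with the edgeR standard error as the bar (n = 3 libraries per genotype). All lie between -0.76 and 0.53, and none was called, against 1.34% of all tested genes.

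Lists of genes that accompany the moult and dauer formation also held few calls at 52 h, when 1.34% of all tested genes were called. At that share few or no calls are expected in the shorter lists, so their absence there says little. Of 29 tested genes on a list of dauer-enriched transcripts, 1 was called higher (3.45%, against 1.04% of all tested genes). It was the metallothionein gene mtl-2, at 19.8, 24.3 and 25.4 CPM in daf-2 against 39.9, 46.4 and 35.1 CPM in the double mutant (a log2 fold change of 0.80 ± 0.15 SE, with an adjusted p of 0.0368 from edgeR). That call was lost in every fit that left out 1 library. With the replicate block 1 gene of this list was higher and 1 was lower. None of 36 moulting genes, 159 collagens, 15 heterochronic genes (the clock of larval stages) or 78 ribosomal protein genes was called. Medians on the log2 scale were 0.10 for the moulting genes, 0.07 for the collagens, 0.00 for the ribosomal proteins and 0.34 for the heterochronic genes. Once the trend with transcript length was removed they were 0.00, 0.12, 0.08 and 0.16. Of the FMRFamide-like neuropeptide genes, 28 of 30 had a negative sign, with a median of -0.16 (-0.09 without the length trend) and no call, and 1 had an unadjusted p under 0.05.

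Genes of innate immunity and detoxification were among the rises at 52 h, but not every list of this kind held calls. None of 70 tested cytochrome P450 genes or 54 caenacin and antimicrobial peptide genes was called (medians -0.03 and -0.00). Nor was any of 31 pals genes or 18 heat shock protein genes (medians 0.14 and -0.16). At 1.34% of all tested genes, few or no calls are expected in lists of this size. On a list of immune and stress effectors, 5 of 25 tested genes were higher in the double mutant and none was lower, and the list's median was 0.43. Over all tested genes 1.04% were higher and the median was -0.01, which is also the background for the family counts that follow. The called members were irg-4, irg-1, gst-4, dod-17 and dod-22. This list, like the others, was written with earlier results of these data known, so its share is no independent support. The gst-4 gene also counts among the glutathione S-transferases below. The level of irg-4, which encodes a CUB-like domain protein of the intestinal infection response, was 2.80, 3.89 and 4.77 CPM in daf-2 against 12.11, 22 and 21.5 CPM in the double mutant (4.87-fold, log2 fold change of 2.28 ± 0.27 SE, with an adjusted p of 0.00567 from edgeR). For irg-1, an infection response gene induced when translation is blocked, it was 2.46, 3.65 and 3.04 CPM against 10.2, 9.54 and 7.25 CPM (log2 fold change of 1.56 ± 0.20 SE, with an adjusted p of 0.00739 from edgeR). In both genes the lowest double-mutant library was well above the highest daf-2 library, and both calls held without any 1 library.

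The glutathione S-transferase genes encode enzymes that conjugate glutathione to toxic compounds. Of 41 tested, 5 were higher, a share of 12.2% (gst-4, gst-12, gst-22, gst-24 and gst-38), none was lower, and the median was 0.27. The gst-4 gene, a common reporter of the oxidative stress factor SKN-1, was among the 5 most abundant by CPM of the genes that rose. It measured 112, 104 and 81.7 CPM in daf-2 against 451, 316 and 215 CPM in the double mutant (3.30-fold, log2 fold change of 1.72 ± 0.26 SE, with an adjusted p of 0.0188 from edgeR). Double-mutant replicate 1 was the highest library here, unlike in most rises, and the call was lost without daf-2 replicate 2, daf-2 replicate 3 or double-mutant replicate 2, with log2 fold changes of 1.75, 1.6 and 1.76. In the fit of all 12 libraries the edgeR adjusted p of gst-4 was 0.0683. Exons of gst-4 overlap those of dhs-12 on the same strand, so reads may be split between them. The skn-1 transcript itself had a log2 fold change of 0.22 (SE 0.14). For gst-12 the values were 1.04, 1.24 and 1.45 CPM against 7.35, 4.48 and 4.81 CPM, and for gst-22 they were 0.622, 1.15 and 0.712 CPM against 3.49, 6.75 and 5.17 CPM. Both were called in each fit that left out 1 library, while gst-24 and gst-38 lost their calls without daf-2 replicate 3, among others.

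UDP-glucuronosyltransferases attach sugars to lipophilic compounds, and 4 of 63 tested genes were higher (6.35%), none lower, with a median of 0.03. The strongest by CPM was ugt-44 at 38.9, 62.1 and 47.4 CPM in daf-2 against 88.1, 208 and 163 CPM in the double mutant (3.10-fold, log2 fold change of 1.63 ± 0.30 SE, with an adjusted p of 0.0416 from edgeR). Its double-mutant libraries spread over more than a 2-fold range, and without double-mutant replicate 1 its log2 fold change was 1.91. The call was lost without any other single library, at log2 fold changes from 1.36 to 1.82, and in the fit of all 12 libraries. The other members called were ugt-10 (1.09, SE 0.15), ugt-13 (0.81, SE 0.14) and ugt-18 (1.59, SE 0.23), the values being log2 fold changes, and each of these 3 calls was lost without daf-2 replicate 3 or double-mutant replicate 3, among others.

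C-type lectins are secreted carbohydrate-binding proteins, many of which respond to infection. Of those tested, 64 with a positive and 55 with a negative sign, 9 were higher (7.56%) and 2 were lower (1.68%), against 1.04% and 0.296% of all tested genes, with a median of 0.04. The largest rise among those above 5 CPM was that of clec-67, from 4.95, 3.12 and 3.10 CPM to 24.4, 26.3 and 28.5 CPM (7.07-fold, log2 fold change of 2.82 ± 0.19 SE, with an adjusted p of 0.00033 from edgeR). The level of clec-265 was 12.45, 10.7 and 7.48 CPM in daf-2 against 34.2, 42.1 and 35.7 CPM in the double mutant (a log2 fold change of 1.87 ± 0.19 SE, with an adjusted p of 0.00295 from edgeR). These 2 calls held without any 1 library. The other 7 higher members were clec-4, clec-143, clec-125, clec-72, clec-9, clec-12 and clec-41, with log2 fold changes from 0.88 to 2.86. All of them lost their call without daf-2 replicate 3, and in the fit of all 12 libraries 3 lectins were higher rather than 9. With the replicate number as a block, clec-125 had an edgeR adjusted p of 0.0589.

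The lectin clec-169 went the other way and was the largest fall in the family. It measured 36.8, 24.9 and 30.2 CPM in daf-2 against 4.60, 4.27 and 5.82 CPM in the double mutant (6.24-fold lower, log2 fold change of -2.64 ± 0.18 SE, with an adjusted p of 0.000347 from edgeR). The groups were far apart, and the call held without any 1 library. The second, clec-6, was at 4.56, 5.24 and 5.89 CPM against 1.47, 2.15 and 2.17 CPM, and its call was lost without daf-2 replicate 2, daf-2 replicate 3 or double-mutant replicate 2. Its log2 fold change was -1.43 (SE 0.20).

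Lysozymes cleave bacterial cell walls in the gut lumen. Of 13 tested, lys-2, lys-3 and ilys-3 were higher (23.1%), none was lower, and the median was 0.29. With the replicate block 4 were higher and 1 was lower, the additions being lys-1 (edgeR adjusted p = 0.0392) and lys-4 (log2 fold change -0.66, edgeR adjusted p = 0.0366). The level of lys-3 was 31.5, 23.5 and 21.6 CPM in daf-2 against 56.6, 64.5 and 62.6 CPM in the double mutant (2.40-fold, log2 fold change of 1.26 ± 0.16 SE, with an adjusted p of 0.007 from edgeR), and the call held without any 1 library. The adjacent lys-2 stood at 129, 142 and 157 CPM against 234, 338 and 314 CPM (2.07-fold, log2 fold change of 1.05 ± 0.17 SE, with an adjusted p of 0.0253 from edgeR). For lys-2 the call was kept without double-mutant replicate 1 and lost without any other library, at log2 fold changes from 0.96 to 1.12. For ilys-3 it was lost without daf-2 replicate 3 or double-mutant replicate 2. In the fit of all 12 libraries none of the 3 was called, with edgeR adjusted p-values of 0.492, 0.104 and 0.356 for lys-2, lys-3 and ilys-3. Among intestinal proteases 2 of 22 were higher, cpr-3 (cathepsin B-like) and asp-17 (aspartic), and with the replicate block 4 were. The level of cpr-3 was 32.5, 51.8 and 45.1 CPM in daf-2 against 86.7, 161 and 132 CPM in the double mutant (a log2 fold change of 1.55 ± 0.25 SE, with an adjusted p of 0.0241 from edgeR). That call was lost without replicate 2 or replicate 3 of either genotype. The call of asp-17 was lost without any 1 library other than double-mutant replicate 1.

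Many of these effectors are made in the intestine. Of 11 tested intestine markers, 9 had a positive sign, with a median log2 fold change of 0.40, and the summed markers given above were higher in each double-mutant library than in 2 of the 3 daf-2 libraries. Among them mtl-2 alone was called. Of 14 pharynx markers 9 had a positive sign, with a median of 0.30, and none was called, while 6 had an unadjusted p under 0.05 in edgeR. Body muscle markers had a positive sign in 11 of 14, with a median of 0.25, or 0.12 with the trend with transcript length removed. Over all 49 lists 53 members were called, when 208 of all tested genes were called (1.34%). The number of distinct members tested was not counted, so 53 cannot be read as many or few. It became 23 without daf-2 replicate 2, 16 without daf-2 replicate 3, 21 without double-mutant replicate 2 and 24 without double-mutant replicate 3. The part of these marker values in the immune and detoxification rises was not tested.

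**Figure D3:**
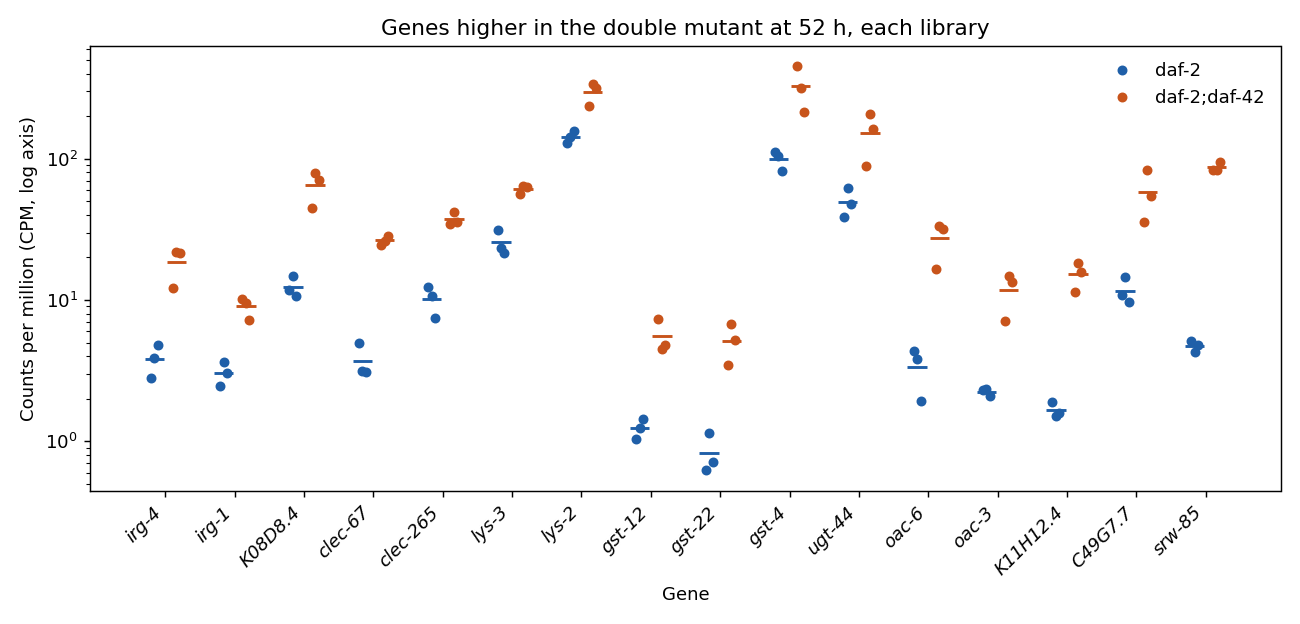
CPM of 16 genes called higher at 52 h, on a log axis, with 1 point per library, 3 per genotype, and a bar at the mean. The genotypes do not overlap for any of the 16, which holds for all 208 called genes, against 18.2% of all tested genes. The lowest double-mutant library is often replicate 1 (the leftmost orange point).

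Outside these families, the largest rises were in single genes of diverse kinds. The chemoreceptor gene srw-85 (chromosome V, 19429387 to 19431136 on the minus strand) rose from 5.14, 4.27 and 4.79 CPM to 83.4, 83.5 and 94.8 CPM (18.4-fold, log2 fold change of 4.2 ± 0.14 SE, with an adjusted p of 5.58e-06 from edgeR). Replicates were tight in both genotypes, and the fold change lay between 4.13 and 4.27 on the log2 scale whichever library was left out. The pseudogene T28C12.5 showed a larger ratio at a lower level, 0.259, 0.177 and 0.274 CPM against 4.77, 3.99 and 7.68 CPM (22.8-fold, log2 fold change of 4.51 ± 0.35 SE, with an adjusted p of 0.000661 from edgeR). It shared reads with other genes in 5 of the 6 libraries, so its value is uncertain. Across the chemoreceptor families as a whole, 4 of 307 tested genes were higher (1.3%) and 3 were lower (0.977%), against 1.04% and 0.296% of all tested genes, with a median of -0.16, or -0.10 with the trend with transcript length removed. The other called members were srr-6, srh-166 and srz-99, which were higher, and srw-2, srw-3 and srw-61, which were lower. Without daf-2 replicate 3 the calls of srr-6, srh-166, srz-99 and srw-61 were lost, among others, while srw-2 and srw-3 held without any 1 library.

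The uncharacterised gene K11H12.4 was at 1.89, 1.5 and 1.59 CPM in daf-2 against 11.4, 18.4 and 15.7 CPM in the double mutant (9.12-fold, log2 fold change of 3.19 ± 0.21 SE, with an adjusted p of 0.000246 from edgeR). Of 32 tested O-acyltransferase genes, which encode membrane-bound acyl transfer enzymes, oac-3, oac-5, oac-6 and oac-20 were higher (12.5%, against 1.04% of all tested genes) and none was lower, with a median of 0.23. The level of oac-6 was 4.38, 3.80 and 1.92 CPM in daf-2 against 16.5, 33.4 and 31.8 CPM in the double mutant (a log2 fold change of 3.02 ± 0.35 SE, with an adjusted p of 0.00545 from edgeR). For oac-3 it was 2.31, 2.33 and 2.08 CPM against 7.12, 14.7 and 13.5 CPM (log2 fold change of 2.40 ± 0.27 SE, with an adjusted p of 0.00495 from edgeR). In both, double-mutant replicate 1 was lower than the other two, and both calls held without any 1 library. The calls of oac-5 and oac-20 were lost without daf-2 replicate 3, among others, and with the replicate block oac-20 had an edgeR adjusted p of 0.0656.

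The claudin-like gene clc-19 had a log2 fold change of 2.65 (SE 0.26), with 3.5, 3.98 and 2.88 CPM against 14.4, 29.1 and 21.3 CPM. The short-chain dehydrogenase gene dhs-8 had one of 2.42 (SE 0.20), with 1.3, 1.3 and 1.21 CPM against 7.84, 7.26 and 5.34 CPM. C49G7.7, of unassigned function, had one of 2.31 (SE 0.30), with 10.8, 14.5 and 9.67 CPM against 35.7, 82.6 and 54.6 CPM. These 3 were called in each fit that left out 1 library. C42D4.3 rose from 11.5, 4.01 and 4.25 CPM to 70.5, 31.4 and 40.8 CPM, with replicate 1 highest in both genotypes (log2 fold change of 2.85 ± 0.45 SE, with an adjusted p of 0.0225 from edgeR). That call was lost without replicate 2 or replicate 3 of either genotype, at log2 fold changes from 2.59 to 3.08. Among 214 tested nuclear hormone receptor genes, nhr-45, nhr-63, nhr-112 and nhr-231 were higher, with log2 fold changes of 0.73, 0.96, 2.14 and 0.92, and none was lower (median 0.03). Their share of the family, 1.87%, is near the 1.04% over all tested genes. Single called members of other lists were the enoyl-CoA hydratase gene ech-9 (1.62, SE 0.22), the CAP-domain gene scl-21 (1.53, SE 0.19) and math-28 (1.11, SE 0.20), all higher, where the value is the log2 fold change. With the replicate block 4 of the 65 tested genes of the MATH, BATH and Skp1-related list were higher rather than 1. Among 151 tested F-box genes, which encode adaptors of ubiquitin ligases, fbxa-74 and fbxa-127 were higher and fbxa-125 and fbxa-192 lower. The share was 1.32% in each direction. For the higher genes this is near the 1.04% over all tested genes, of which 0.296% were lower. The calls of the 4 receptors, ech-9, scl-21, math-28 and both higher F-box genes were lost without daf-2 replicate 3, and those of both lower F-box genes held without any 1 library. The transcript ZK1055.7, among the 5 most abundant rises by CPM, was at 48.0, 63.8 and 52.5 CPM against 100.42, 117 and 110.2 CPM, and its call (log2 fold change 0.99, SE 0.14) was also lost without daf-2 replicate 3 and without double-mutant replicate 2 or 3. Exons of clc-19, gst-22, oac-20, clec-143, nhr-63 and dhs-7 overlap a gene on the other strand, those of ech-9 and nhr-231 overlap a gene on their own strand, and the values of these genes are uncertain to that extent.

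The falls were fewer, and the largest of them were among the largest differences in the data. F56A4.3 (WBGene00018911, chromosome V, 2453414 to 2456147 on the plus strand) measured 85.7, 129 and 125 CPM in daf-2 against 0.979, 0.844 and 0.193 CPM in the double mutant. In estimated counts this was 3305, 4368 and 4546 against 30, 33 and 8. The level was 172-fold lower (log2 fold change of -7.43 ± 0.44 SE, with an adjusted p of 0.000122 from edgeR). It shared reads with other genes in all 6 libraries, so its value is uncertain. Its neighbour F56A4.9, which starts right after F56A4.3 ends and lies on the other strand, fell from 9.78, 15.7 and 19.1 CPM to 0.0979, 0.128 and 0.193 CPM (log2 fold change of -6.66 ± 0.37 SE, with an adjusted p of 7.04e-05 from edgeR). Y19D10A.7, with its midpoint at -105.5 kb from that of F56A4.3, fell from 13.5, 15.7 and 20.2 CPM to 0.163, 0.128 and 0.193 CPM (log2 fold change of -6.64 ± 0.26 SE, with an adjusted p of 1.30e-05 from edgeR). F56A4.9 and Y19D10A.7 had close values except in replicate 1 of each genotype, and each shared reads with other genes in 4 of the 6 libraries, so their values are uncertain.

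This stretch of chromosome V holds repeated gene copies. Of 43 tested genes within 150 kb of F56A4.3, 16 formed 8 pairs with equal counts in all 6 libraries, and 10 of the 43 were called, all lower, or 8 distinct signals with each equal pair counted once. F56A4.2 and Y19D10A.9 were such a pair, each given 82.5, 90.1 and 81.5 CPM in daf-2 against 36.6, 33.2 and 23.6 CPM in the double mutant (a log2 fold change of -1.44 ± 0.17 SE, with an adjusted p of 0.00545 from edgeR). Between the called genes lay copies that were not called, such as F56A4.12 and Y19D10A.11, a pair with a log2 fold change of 0.00 (SE 0.18). Further along, Y45G12C.4 fell from 7.29, 6.45 and 9.72 CPM to 0.881, 0.691 and 1.98 CPM (log2 fold change of -2.70 ± 0.36 SE, with an adjusted p of 0.00931 from edgeR), but was not called in the fit of all 12 libraries (edgeR adjusted p = 0.43). F15E11.10, F56A4.12 and the pairing were picked out after the values were seen. F15E11.10 lies beside Y19D10A.7 and had 31, 46 and 62 counts in daf-2 and 0, 2 and 0 in the double mutant.

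**Figure D4:**
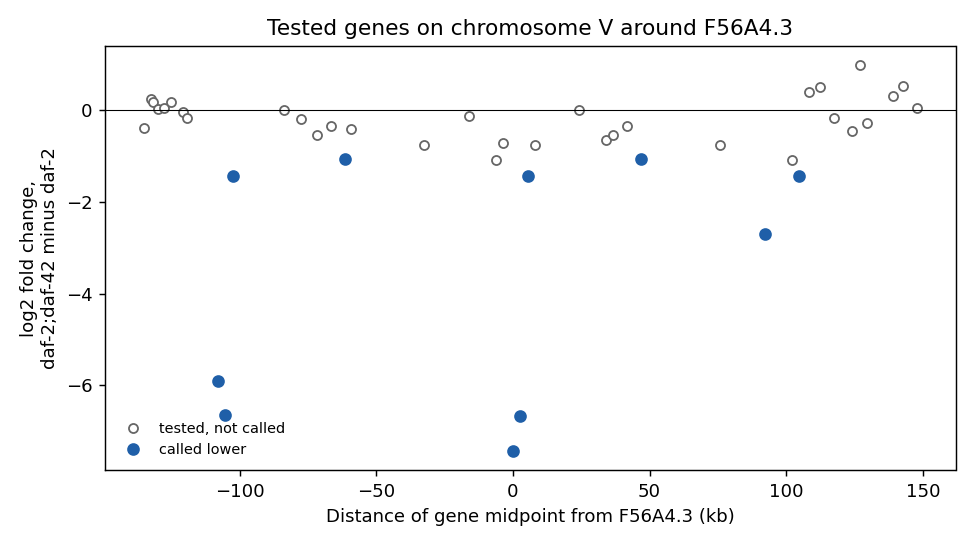
Log2 fold change at 52 h of the 43 tested genes within 150 kb of F56A4.3 on chromosome V, by distance of the gene midpoint from it in kb; filled points are the 10 genes called lower. Called genes and genes near 0 are interspersed along the stretch, and the fitted value of F15E11.10, at -107.9 kb, rests on at most 2 counts per double-mutant library.

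A second site of large falls lay elsewhere on chromosome V, between 8828165 and 8873535. F07B7.1 and W09B7.1 were a pair with equal counts, at 11.2, 11.25 and 9.53 CPM in daf-2 against 0.261, 0.256 and 0.459 CPM in the double mutant (31.9-fold lower, log2 fold change of -5.0 ± 0.23 SE, with an adjusted p of 3.11e-05 from edgeR). The adjacent pair F07B7.2 and W09B7.2 was at 13.5, 15.5 and 14.1 CPM against 2.29, 2.02 and 2.27 CPM (6.56-fold lower, log2 fold change of -2.71 ± 0.13 SE, with an adjusted p of 3.40e-05 from edgeR). Each pair counts as 1 signal here. The 8 other tested genes of the stretch were not called. Their log2 fold changes ran from -0.19 to 1.06.

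A further site was on chromosome I, from 10644245 to 10654237, where 3 of 4 tested genes fell. B0511.11 was at 20.4, 21 and 21.3 CPM in daf-2 against 5.58, 3.53 and 3.79 CPM in the double mutant (4.88-fold lower, log2 fold change of -2.29 ± 0.18 SE, with an adjusted p of 0.000661 from edgeR). The adjacent F-box gene fbxa-125 fell from 0.830, 1.00 and 0.986 CPM to 0.131, 0.0767 and 0.145 CPM, and tag-344, chosen after its values were seen, had 83, 75 and 64 counts in daf-2 and 7, 1 and 1 in the double mutant.

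The other named falls lay apart from these sites. The aldehyde dehydrogenase gene alh-2 was at 57.5, 81.3 and 98.7 CPM in daf-2 against 18.2, 24.4 and 26.3 CPM in the double mutant (a log2 fold change of -1.79 ± 0.22 SE, with an adjusted p of 0.00641 from edgeR). Without double-mutant replicate 2 its edgeR adjusted p was 0.0504. The histone H3 variant gene his-74 was the only called histone of 31 tested, at 18.8, 17.8 and 15.2 CPM against 8.33, 7.96 and 7.44 CPM (log2 fold change of -1.13 ± 0.12 SE, with an adjusted p of 0.00489 from edgeR and of 0.0525 in the fit of all 12 libraries). The pseudogene H28G03.5 fell from 9.18, 13.9 and 17.6 CPM to 3.30, 2.28 and 3.62 CPM (log2 fold change -2.14, SE 0.26), with reads shared in all 6 libraries. Smaller falls in more abundant transcripts were those of the short-chain dehydrogenase gene dhs-7 (-0.62, SE 0.11) and the immunoglobulin-domain gene zig-7 (-0.71, SE 0.13), in log2 fold change. Both calls were lost in every fit that left out 1 library and with the replicate block, at edgeR adjusted p-values of 0.0586 for dhs-7 and 0.0541 for zig-7.

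The share of genes called is given by chromosome, with no test between chromosomes. Chromosome V held 72 of the rises, 2.06% of its 3493 tested genes, and 27 of the falls (0.773%), against 1.04% and 0.296% of all tested genes. These falls count both members of the equal-count pairs at the F56A4 and F07B7 sites. Its 99 calls became 44 without daf-2 replicate 2, 37 without daf-2 replicate 3, 40 without double-mutant replicate 2 and 48 without double-mutant replicate 3. Chromosome IV followed with 34 rises (1.37% of 2480), and the X chromosome held 12 rises and 1 fall among 2252. Near daf-42 itself 5 of 351 tested genes within 1000 kb were called (1.42%), and 1 of 103 within 250 kb (0.971%), shares near the 1.34% over all tested genes. The longest run of neighbouring rises lay on chromosome IV from 12880607 to 12981991, where 10 of 24 tested genes were higher and none was lower. Several of its genes encode CUB-like domain proteins, secreted proteins linked to the pathogen response.

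The most abundant called gene of that run by CPM was K08D8.4, at 11.8, 14.7 and 10.6 CPM in daf-2 against 44.9, 78.6 and 70.3 CPM in the double mutant (5.23-fold, log2 fold change of 2.39 ± 0.22 SE, with an adjusted p of 0.00219 from edgeR). Its call held without any 1 library. The genes dod-17 and dod-22, known as downstream of DAF-16, had low counts. The counts of dod-17 were 17, 3 and 4 in daf-2 and 58, 67 and 60 in the double mutant (log2 fold change of 2.93 ± 0.48 SE, with an adjusted p of 0.0253 from edgeR), and those of dod-22 were 4, 1 and 0 against 15, 26 and 18. Both calls held without daf-2 replicate 1 and were lost without any other library. With the replicate block dod-22 had an edgeR adjusted p of 0.054. Another of these, dod-24, was at a mean of 1.38 CPM in daf-2, against 3.94 CPM in the other strain, and was not called (log2 fold change 1.51, SE 0.36). It is given here after its value was seen, as the neighbour of the same group.

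The 60 h libraries, which share none with the 52 h comparison, gave a second reading of the same genes. At 60 h, 2294 of 15687 tested genes were called (14.6%), 1368 higher (8.72%) and 926 lower (5.9%), in a comparison that also sets partly dead larvae against living ones. Of the 162 genes higher at 52 h, 155 were tested at 60 h and 113 of these were called higher (72.9%). Their median log2 fold change was 1.37 at 52 h for the 162 and 2.01 at 60 h for those tested. Of the 46 genes lower at 52 h, all were tested and 28 were called lower (60.9%). A gene called in opposite directions at the 2 times was found once in each set, ttm-1 and srw-3. The count of 141 genes seen again ranged from 99 to 149 when single 60 h libraries were left out. Leaving out a 52 h library lowered it to 66 (daf-2 replicate 2), 59 (daf-2 replicate 3), 64 (double-mutant replicate 2) or 77 (double-mutant replicate 3). The number of calls at 60 h itself was 944 without daf-2 replicate 1, 948 without daf-2 replicate 2, and 3912, 1294 and 775 without double-mutant replicates 1, 2 and 3 of that time.

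Among the rises, srw-85 was again high at 60 h in the double mutant, at 62.3, 82.0 and 78.2 CPM against 3.20, 2.09 and 9.02 CPM in daf-2. The level of irg-4 was 5.86, 10.3 and 14 CPM against 0.747, 0.491 and 0.744 CPM, and that of gst-4 was 496, 1048 and 511 CPM against 119.5, 87.3 and 158 CPM. The genotypes did not overlap for any of these at 60 h, where the share of all tested genes without overlap was not computed. At 52 h no called gene overlapped, against 18.2% of all tested genes without overlap. By contrast, the call of lys-3 was not repeated: its daf-2 level was 126, 118 and 198 CPM at 60 h and its double-mutant level 187, 399 and 260 CPM, with overlapping groups (edgeR adjusted p = 0.117). Among the falls, F56A4.3 was at 62.8, 54.6 and 92.8 CPM in daf-2 against 0.468, 0.898 and 0.480 CPM in the double mutant at 60 h. Every double-mutant library of the study, 6 in all, held this transcript at below 1 CPM. The level of clec-169 was again lower, at 17.6, 9.45 and 14.1 CPM against 3.37, 2.97 and 4.64 CPM.

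The daf-42 transcript was at 938, 2054 and 508 CPM in daf-2 against 259, 74.8 and 147 CPM in the double mutant at 60 h (log2 fold change -2.86, edgeR adjusted p = 0.0269). The genotype effect was not shown to differ between the times, as the interaction in the fit of all 12 libraries, in which 9.52% of tested genes were called, was -1.72 on the log2 scale (edgeR adjusted p = 0.12). For the zinc transporter gene ttm-1, named because it went in opposite directions, the level at 52 h was 19.7, 18.4 and 18.8 CPM in daf-2 against 40.4, 45.9 and 47.7 CPM in the double mutant. At 60 h it was 51.2, 80.6 and 66 CPM against 21.6, 11.1 and 23.8 CPM.

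**Figure D5:**
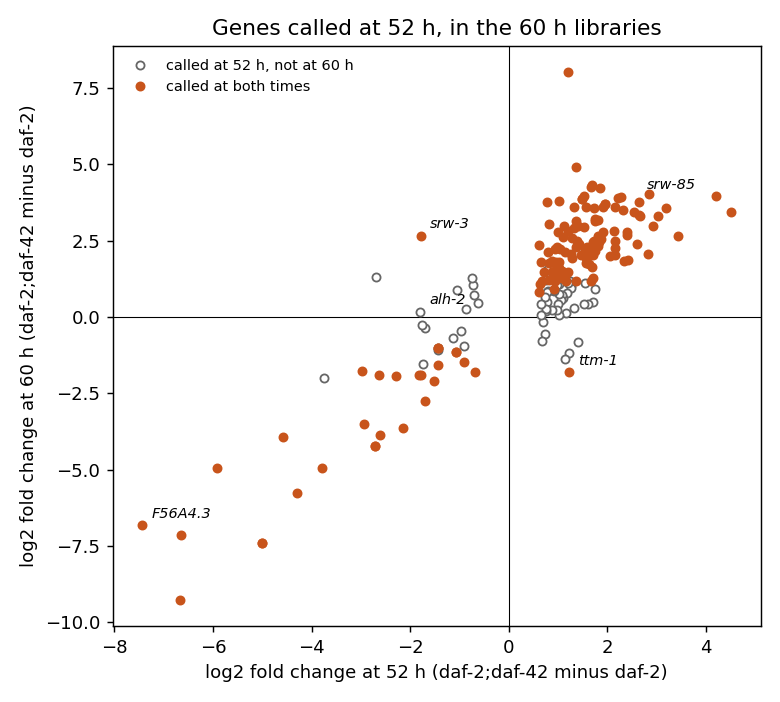
Log2 fold change between genotypes at 52 h (x axis) and at 60 h (y axis) for the 201 genes called at 52 h and tested at both times; filled points are also called at 60 h. Most points lie in the lower left and upper right quadrants, 185 of 201 with the same sign, and srw-3 and ttm-1 are the 2 called in opposite directions.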

How the data were processed

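Per the submitters' processing notes, kallisto 0.46.1 and genome build WBcel235 were used. The authors deposited 1 table per library giving, per the file headers, the estimated count, TPM, length and effective length of 36172 transcripts. The deposited TPM values sum to 1000000 per library and were used only as a check. Transcripts were summed to 22113 genes with the WBcel235 annotation (31502 matched by identifier, 4581 by sequence name, 89 unmatched), and sums were rounded. A sum that was not whole (tolerance 0.01) was taken as shared reads, and whether the authors' counting used strand is not given in the sources used here, so overlapping genes are uncertain.

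The 6 libraries at 52 h were fitted alone with edgeR 4.0.16 (R 4.3.3), with TMM scaling, filterByExpr by group and the quasi-likelihood test, and genes were called at a Benjamini-Hochberg adjusted p under 0.05. The 60 h libraries were fitted likewise. One fit of all 12 libraries gave the interaction. The SE of a fold change is its size divided by the root of F. CPM were scaled by TMM and not scaled by gene length. Fits of 52 h libraries alone were preferred because the replicates spread more at 60 h. The members, the gene lists and this choice were made with earlier results of these data known. No set tests were run.

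Named genes were daf-42 and daf-2, the 12 largest rises and 12 largest falls among called genes with a mean of at least 5 CPM in a genotype and no overlap between groups, the 5 called genes of highest CPM in each direction, called members of 49 lists, and the genes of 4 dauer-regulatory lists. No 2 libraries of a group at 52 h agreed within sampling noise (chi-square per gene 13.7 to 133.3). At 52 h the deviations of same-numbered libraries from their group means correlated at 0.263, 0.145 and 0.237, so the numbers may pair the samples at this time. The main fits had no pairing term, and their SEs and p-values ignore any such pairing. The replicate block was an alternative fit (266 calls at 52 h against 208), and its values are given where it removed a named call. Calls that it added are not all named. With it 11 C-type lectins were higher rather than 9, and 6 glutathione S-transferases rather than 5. Of the immune and stress effectors 6 were higher rather than 5. Lower were 3 F-box genes rather than 2, and 2 CAP-domain scl genes rather than 0. Alternatives were 1 fit of all 12 libraries, RLE and upper-quartile scaling, no filter, DESeq2 1.42.0, the replicate block, a length offset (lowess, span 0.3), glmTreat at a 1.5-fold change, and leaving out each library. On simulated counts for the 52 h comparison (15371 genes, 200 changed), edgeR recovered 12% of the 1.5-fold, 56% of the 2-fold and 100% of the 4-fold changes, with 3.62% of calls false, against 17.2% for DESeq2. These counts were drawn with edgeR's dispersion estimates and no relation between libraries. No sequences were used here.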

Additional observations from a re-analysis of the deposited data

Results flagged for a closer look

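Each of the following genes, named above, was called by the genotype by time interaction test in the fit of all 12 libraries (edgeR, adjusted p under 0.05, 9.52% of 16371 tested genes called). They were named for their calls at 52 h, and the test uses the same 52 h libraries. The 52 h part of each interaction is therefore not independent of that choice. In that fit the 52 h difference itself was not called for gst-24, ugt-13, dhs-7 or zig-7. Their edgeR adjusted p-values at 52 h there were 0.826, 0.119, 0.191 and 0.657. The interaction is the log2 fold change between genotypes at 60 h minus that at 52 h, and the double-mutant harvest at 60 h held dead larvae as well.

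The largest was srw-3, at 4.42 (edgeR adjusted p = 0.000391). Its level at 52 h was 4.31, 3.27 and 4.3 CPM in daf-2 and 1.31, 1.3 and 0.870 CPM in the double mutant. The 60 h values were 0.806, 0.458 and 0.864 CPM against 2.46, 6.16 and 4.99 CPM. The genotypes were in opposite order at the 2 times.

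The interaction was 2.98 for gst-24, whose log2 fold changes were 0.77 and 3.77 at the earlier and the later time. For irg-1 it was 2.04 (1.56 and 3.59), and for ugt-13 it was 0.97 (0.81 and 1.78). These 3 rises were larger at the later time.

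The fall of alh-2 at 52 h was not seen at 60 h, with an interaction of 1.96 and a log2 fold change of 0.17 at 60 h. The interaction was 1.09 for dhs-7 and 1.42 for zig-7, whose log2 fold changes at 60 h were 0.46 and 0.72.

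For the equal-count pairs of the F07B7 and W09B7 site the fall was larger at 60 h. The double-mutant level of F07B7.1 at 60 h was 0.187, 0.031 and 0.133 CPM, near the floor, so the size of its interaction is uncertain. F07B7.1 and W09B7.1 had an interaction of -2.37 (edgeR adjusted p = 0.0263), and F07B7.2 and W09B7.2 one of -1.48 (edgeR adjusted p = 0.0219).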

How the results depend on the processing

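With all 12 libraries in 1 fit, 104 genes were called at 52 h (72 higher), 52 on chromosome V and 30 among the listed genes, and 5626 at 60 h, against 208 (162 higher), 99, 53 and 2294. DESeq2 called 503 at 52 h (351 higher, 152 lower), 186 on chromosome V and 125 listed, 4313 at 60 h, and 292 at both times against 141. With a 1.5-fold minimum the numbers were 70 (45 higher, 25 lower), 34, 17, 961 and 55. The length offset gave 3981 calls at 60 h. With the replicate block 266 genes were called at 52 h and 500 at 60 h, and 90 at both times. At 60 h, same-numbered libraries correlated at 0.247, -0.656 and 0.114. Higher values were seen between unlike numbers, such as 0.703 for daf-2 replicate 3 with double-mutant replicate 2. These values do not settle whether samples were paired at 60 h. RLE and upper-quartile scaling and no filter kept every count within 1.5 times. Leaving out 1 library gave 74 to 193 calls at 52 h, 45 to 155 higher, 26 to 60 lower, 37 to 89 on chromosome V, 16 to 59 listed, 775 to 3912 at 60 h, and 59 to 149 at both times.

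None of the 76 named called genes changed sign under any of these settings. The number that lost its call was 28 with all 12 libraries, 1 with RLE, 3 with upper-quartile scaling, 5 with the block, 4 with the length offset, 40 with the 1.5-fold minimum, and 16 to 41 without 1 library. The block changed no other named call. Log2 fold change followed transcript length (Spearman rho 0.28 across genes, which are not independent replicates, and -0.01 with the offset).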
